A study of Mus musculus with 4 samples.

Results

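The genes of the HIF pathway core were followed in RNA-Seq of mouse hematopoietic stem cells (HSCs) with and without *Id2*. The set holds 10 genes, found by symbol among the 19354 rows of the table: the HIF subunits *Hif1a*, *Epas1* and *Arnt*, the HIF hydroxylases *Egln1*, *Egln2*, *Egln3* and *Hif1an*, and the ubiquitin ligase genes *Vhl*, *Cul2* and *Rbx1*. They were chosen for their roles, with earlier results of these data known, and each had 1 row. HSCs were sorted as LSK FLT3- CD48- CD150+ cells from *Mx1-Cre* *Id2*+/+ controls and from *Mx1-Cre* *Id2*Fl/Fl mice, called *Id2*Δ/Δ once the floxed gene is removed. Mice were 8 to 16 weeks old, both genotypes received pIpC, and cells were taken 2 weeks later. *Mx1-Cre* is switched on by interferon, which pIpC induces, and is not restricted to HSCs, so both groups share the transgene and the interferon stimulus and other cells of an *Id2*Fl/Fl mouse can lose the gene too. Cells of 14 control and 15 *Id2*Fl/Fl mice were pooled over 2 experiments and gave 2 libraries per genotype, here replicates 1 and 2. The labels do not tie a library to an experiment or to particular mice, so p-values measure the spread between these libraries only, which may be partly technical.

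HIF is a transcription factor made of an oxygen-regulated α subunit and the stable partner ARNT (HIF-1β). When oxygen is present, prolyl hydroxylases (PHDs, encoded by the *Egln* genes) mark the α subunit, VHL binds the marked protein, and the ligase that VHL forms with elongins B and C, cullin 2 and RBX1 tags it for the proteasome, while the asparaginyl hydroxylase FIH blocks its coactivator contact. Quiescent HSCs live in hypoxic marrow, where the need for HIF-1α is debated, and most of this control acts on protein, which RNA-Seq does not measure. The study is about how ID2 and HIF-1α keep HSCs quiescent. The comparison here asks whether the transcripts of the machinery itself differed between the genotypes.

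HIF binds DNA at a core of ACGTG or GCGTG, and several genes of its own control loop are known HIF targets. The core was therefore searched on both strands in promoter sequences of RefSeq on GRCm38.p6, from 250 bases before to 50 bases after each start. Entries matched 8 of the 10 genes, with 2 windows for *Egln2*. *Epas1* and *Cul2* had no entry. A stretch with a core in *Arnt*, and further ones in *Egln1* and *Egln2*, are not printed. Each stretch below is an example that holds at least 1 core before the RefSeq start of 1 of 5 genes whose levels are described. Those RefSeq starts lay within 70 bases of a transcript start in GENCODE M21. In *Egln1* that annotated transcript begins 70 bases before the RefSeq start. The printed *Egln1* core begins 68 bases before the RefSeq start, inside the annotated transcript. For *Hif1a* the start used, 73907867, was 37 bases before 2 annotated transcripts and 6492 bases inside the gene as annotated, whose first transcript begins farther upstream. Each is written 5′ to 3′ on the gene's strand, and capitals mark the core, which reads CACGT or CACGC where it lies on the other strand.
*Hif1a*, chr12:73907720-73907749, plus strand: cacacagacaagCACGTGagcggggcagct
*Hif1a*, chr12:73907785-73907813, plus strand: tggctgagagcaACGTGggctggggtggg
*Egln1*, chr8:124949306-124949334, minus strand: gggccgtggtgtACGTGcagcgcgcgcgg
*Egln2*, chr7:27166820-27166862, minus strand: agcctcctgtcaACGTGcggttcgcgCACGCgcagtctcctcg
*Egln3*, chr12:54204087-54204115, minus strand: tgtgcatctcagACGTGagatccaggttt
*Rbx1*, chr15:81466215-81466270, plus strand: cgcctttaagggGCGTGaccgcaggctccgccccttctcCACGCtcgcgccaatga
The first *Hif1a* window joins cores of both strands into the palindrome CACGTG, which E-box factors also bind, and the first *Egln2* promoter holds the same palindrome across its start. Either core was present in 6 of the 8 genes, and in none of the windows of *Vhl* and *Hif1an*. Among 32851 promoters of the same length, 19.6% held ACGTG, 32.4% held GCGTG, 43.8% held either and 7.15% held CACGTG, so a match is common and describes letters, not binding.

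Expression values are on the log2 CPM scale, where CPM, or counts-per-million, are reads scaled to library size, and the authors' normalization gave every library the same median of 3.92. Depth, recovered from the low values, was 14500000 to 18200000 reads per library. The floor that a count of 0 allows, 3 reads, was 0.207 CPM in the shallowest and 0.165 CPM in the deepest library, and covers counting error only. *Id2*, the targeted gene, was read 93 and 98 times in the *Id2*+/+ libraries, and both *Id2*Δ/Δ libraries were at 0 reads. All 11 HSC gate markers were detected. Their summed level was 4645 and 4536 CPM in *Id2*+/+ and 3181 and 3773 CPM in *Id2*Δ/Δ HSCs, and 8 of the 11 had the lower mean after deletion. Neutrophil markers summed to 284 and 263 CPM in the replicates numbered 1 and to 171 and 141 CPM in those numbered 2. *Prtn3* made up much of these sums, and without it they were 149 and 113 CPM against 52.9 and 26.5 CPM. In sorted bulk RNA, fewer cells of a type and less RNA per cell cannot be told apart.

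No gene of the pathway core passed the test between genotypes. With limma on 15895 genes at a mean of at least 1 CPM and Benjamini-Hochberg adjustment, adjusted p-values of the 10 genes ran from 0.910 to 0.988, and 0% of all tested genes were called at 0.05. At an unadjusted p under 0.05, 1 of the 10 stood, *Rbx1*, beside 4.67% of all tested genes (1.72% higher and 2.95% lower). The *Id2*Δ/Δ libraries did not overlap the *Id2*+/+ libraries for 4 of the 10 genes, *Epas1* and *Rbx1* above and *Arnt* and *Vhl* below, where 34.8% of all tested genes showed such a gap (19% above and 15.8% below). The median log2 difference, given throughout as *Id2*Δ/Δ minus *Id2*+/+, was -0.02 over the 10 genes and 0.01 over all tested genes, with 5 genes higher and 5 lower. For 8 of the 10 the difference was smaller than its standard error. The 95% interval stayed within 1.5-fold in either direction for 6 of the 10 genes and within 2-fold for 9, all but *Epas1*.

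**Figure D1:**
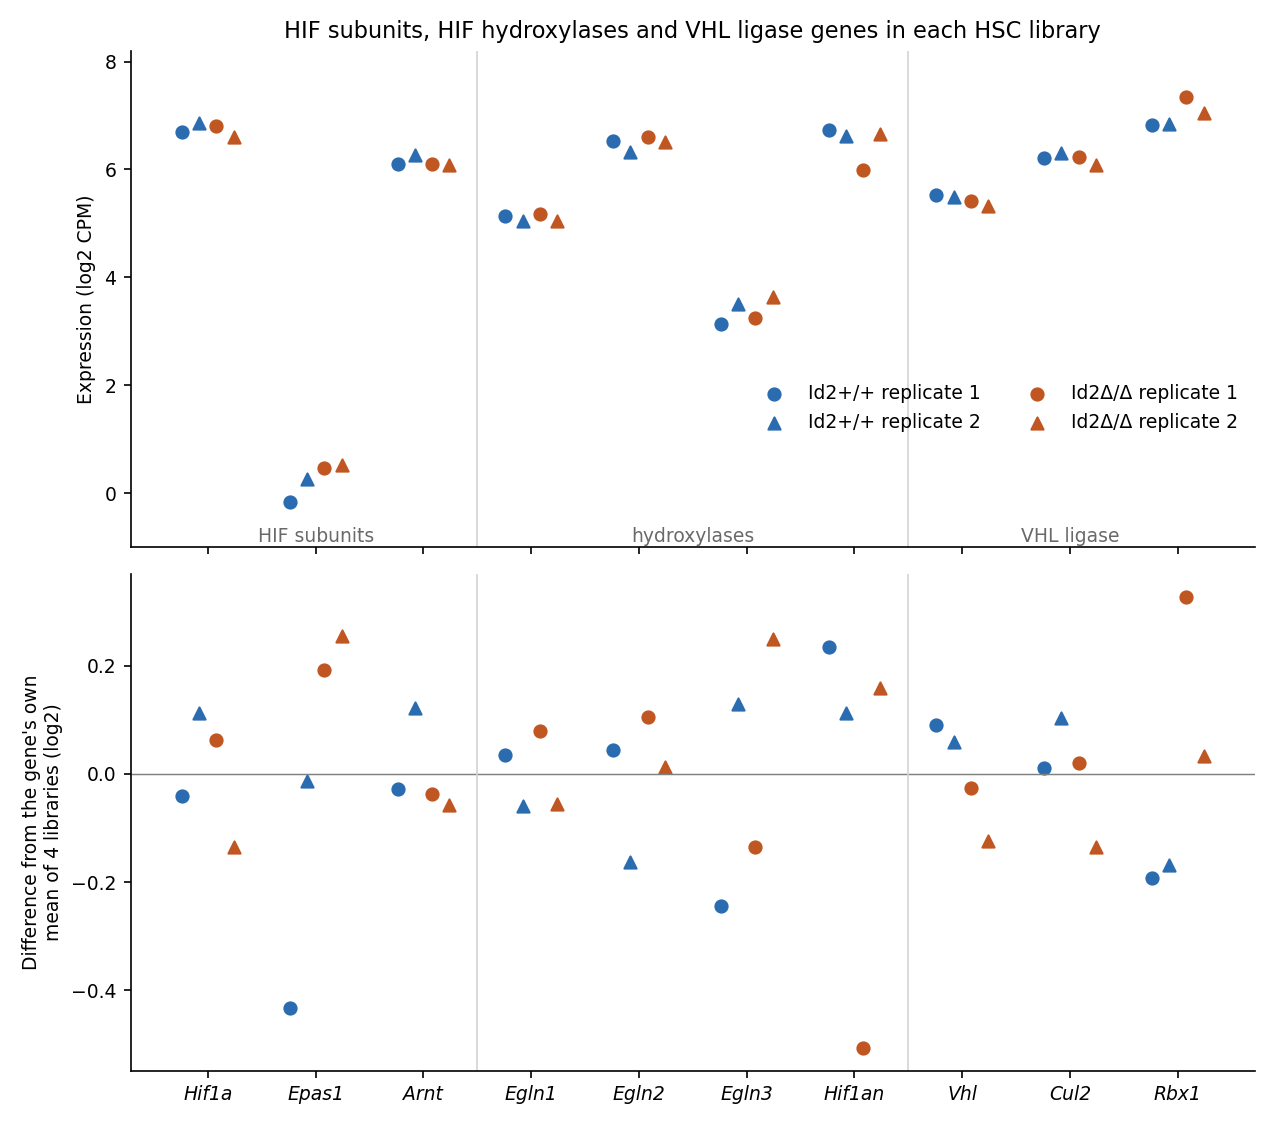
Level of each of the 10 genes in log2 CPM (upper y axis) and its difference from the gene's own mean of 4 libraries in log2 units (lower y axis). Each point is 1 library, coloured by genotype and shaped by replicate, with genes grouped by role along the x axis. *Epas1* lay near 0, *Egln3* between 3.14 and 3.63, and the other genes between 5.04 and 7.34; *Hif1an* in *Id2*Δ/Δ replicate 1 and *Rbx1* in both *Id2*Δ/Δ libraries stood off from the other libraries.

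Among the subunits, *Hif1a* transcript did not differ detectably between genotypes. *Hif1a* encodes HIF-1α (ENSMUSG00000021109.13, plus strand of chromosome 12, 73901375 to 73947530, GRCm38 as for all genes here). Its level was 6.70 and 6.86 log2 CPM in *Id2*+/+ replicates 1 and 2, and 6.81 and 6.61 in *Id2*Δ/Δ replicates 1 and 2. A control library was the highest and an *Id2*Δ/Δ library the lowest, with 1 of each genotype between them, so the groups overlapped. The means were 6.78 ± 0.11 (SD, n = 2) and 6.71 ± 0.14 (SD, n = 2). That is a log2 difference of -0.07 (standard error 0.14), or 0.952-fold with a 95% interval of 0.761 to 1.19-fold. The sign turned on single libraries: the value was -0.17 when *Id2*Δ/Δ replicate 1 was left out, 0.03 when *Id2*Δ/Δ replicate 2 was, and 0.0053 when *Id2*+/+ replicate 2 was.

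*Hif1a* shares exonic positions with *Gm15283*, an antisense gene on the other strand, named here for its position and not by the rule for named genes. It was listed at 18.9 and 20.6 CPM in *Id2*+/+ and at 14.0 and 16.6 CPM in *Id2*Δ/Δ HSCs, from 250 to 320 reads. Neither *Id2*Δ/Δ value reached a control value, and the log2 difference was -0.37 (standard error 0.22, adjusted p = 0.910, limma). *Gm49321*, a protein-coding gene on the same strand, also shares exonic positions with *Hif1a* and had no row in the values used. Whether reads were assigned by strand is not given in the sources used here, so reads of these genes and of *Hif1a* cannot be told apart with certainty.

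*Epas1* and *Arnt* are the other α subunit of the set and the shared partner. *Epas1* (ENSMUSG00000024140.9, chromosome 17 from 86753700 to 86833410, plus strand) encodes HIF-2α, and is also a characteristic gene of endothelium. Reads numbered 13 and 19 in *Id2*+/+ HSCs and 24 in each *Id2*Δ/Δ library, which are levels of -0.16, 0.25, 0.46 and 0.52 log2 CPM. Each *Id2*Δ/Δ value exceeded the control values, but the 95% interval of the difference, 0.450 to 4.12-fold around 1.36-fold, is too wide at this depth to tell a fall from a rise. Of 9 endothelial markers, *Cdh5* and *Flt1* had no row in the values used, and the others summed to 476 and 517 CPM in *Id2*+/+ and 440 and 519 CPM in *Id2*Δ/Δ HSCs. Of the 6 that were tested, 2 had a higher and 4 a lower mean after deletion. *Tie1* made up much of the endothelial sums, and without it they were 268 and 274 CPM in controls and 245 and 266 CPM after deletion. The 2 with a higher mean were *Kdr* and *Emcn*, by 0.58 and 0.10, both with overlap. *Stab2*, a sinusoidal receptor, lay below the filter and outside the rule for named genes. It had 15 and 11 reads in controls and 0 and 1 after deletion. The part of endothelial cells in the *Epas1* reads was not tested.

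*Arnt* (ENSMUSG00000015522.18, chromosome 3 from 95434388 to 95497240, plus strand) was at 6.11 and 6.26 log2 CPM in *Id2*+/+ HSCs. In *Id2*Δ/Δ HSCs it was at 6.10 and 6.08, just below the lower control. The log2 difference of -0.09 (standard error 0.14, adjusted p = 0.934, limma) was smaller than its error.

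Counted per kilobase of the longest coding transcript, nearly all of the summed *Hif1a* and *Epas1* level was *Hif1a*. *Hif3a*, the third HIF-α gene, is outside the set and this sum. It was at 14.2 and 26.2 CPM in *Id2*+/+ and at 14.5 and 13.1 CPM in *Id2*Δ/Δ HSCs. *Epas1* made up 0.729% and 0.875% of the summed *Hif1a* and *Epas1* level in controls, and 1.04% and 1.25% after deletion of *Id2*. All 4 shares rest on the few *Epas1* reads given above. *Hif1a* and *Arnt*, which pair in the HIF-1 dimer, stood in a ratio of 1.38 in each control, while *Id2*Δ/Δ replicate 1 gave 1.49 and replicate 2 gave 1.32, so the *Id2*Δ/Δ values lay on either side of the controls.

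The prolyl hydroxylases that mark HIF-α for VHL were at like levels in both genotypes. *Egln1* (ENSMUSG00000031987.6, chromosome 8 from 124908587 to 124949324, minus strand) encodes PHD2, the main oxygen sensor for HIF-1α in most cells. It was at 5.13 and 5.04 log2 CPM in *Id2*+/+ and 5.18 and 5.04 in *Id2*Δ/Δ HSCs. Groups overlapped, and the difference of 0.02 (standard error 0.17) corresponds to 1.02-fold, with a 95% interval of 0.770 to 1.34-fold. *Egln2* (ENSMUSG00000058709.11, chromosome 7 from 27158658 to 27166802, minus strand) encodes PHD1. Its levels were 6.53 and 6.32 log2 CPM in *Id2*+/+ and 6.59 and 6.50 in *Id2*Δ/Δ HSCs, with a log2 difference of 0.12 (standard error 0.14). Here too the groups overlapped, the lowest value being *Id2*+/+ replicate 2.

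*Egln3* encodes PHD3, whose gene is a strong HIF target in many cells, and differed between replicate numbers more than between genotypes. *Egln3* (ENSMUSG00000035105.5, chromosome 12 from 54178981 to 54203860, minus strand) had 128 and 181 reads in *Id2*+/+ replicates 1 and 2, and 166 and 226 in *Id2*Δ/Δ replicates 1 and 2. On the log2 CPM scale these are 3.14, 3.51, 3.25 and 3.63. The replicates numbered 2 were above those numbered 1 by 0.37 in *Id2*+/+ and by 0.38 in *Id2*Δ/Δ HSCs, and the neutrophil markers were lower in the same 2 libraries, a link that was not tested. Between genotypes the log2 difference was 0.12 (standard error 0.29, adjusted p = 0.957, limma).

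Per kilobase, *Egln2* was the most abundant of the 3 prolyl hydroxylase transcripts in every library. It made up 73.9% to 77.0% of their sum, *Egln1* 16.2% to 17.8% and *Egln3* 5.80% to 8.32%. The ratio of *Egln2* to *Egln1* was 4.49 and 4.15 in *Id2*+/+ and 4.54 and 4.68 in *Id2*Δ/Δ HSCs. Both *Id2*Δ/Δ ratios were above the controls, and the gap between the genotypes was smaller than the distance between the 2 controls. *Egln2* overlaps *Cyp2t4* on the other strand, but that gene had only 20 to 35 reads per library.

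*Hif1an*, which encodes FIH, had the largest spread of the 10 genes between libraries of 1 genotype, and 1 library set its difference. *Hif1an* (ENSMUSG00000036450.4, chromosome 19 from 44562850 to 44576274, plus strand) was at 6.73 and 6.61 log2 CPM in *Id2*+/+ HSCs, and at 5.99 and 6.66 in *Id2*Δ/Δ HSCs. The library of *Id2*Δ/Δ replicate 1 lay below the other 3, while *Id2*Δ/Δ replicate 2 lay between the controls. The log2 difference of -0.35 (standard error 0.22, unadjusted p = 0.151 and adjusted p = 0.910, limma) became -0.01 without *Id2*Δ/Δ replicate 1 and -0.68 without *Id2*Δ/Δ replicate 2. In that last fit *Hif1an* passed an unadjusted p under 0.05, as did 15.8% of all tested genes. Its SD within genotypes, 0.34, was at the 71.4th percentile of all tested genes. That ranking covers genes of all levels, low counts included, so it does not say whether the spread was unusual at this level. *Egln2*, the gene of the set nearest to *Hif1an* in mean log2 CPM, had an SD of 0.11. Relative to *Egln1* per kilobase, *Hif1an* stood at 1.76 and 1.73 in *Id2*+/+ and at 1.02 and 1.78 in *Id2*Δ/Δ HSCs.

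**Figure D2:**
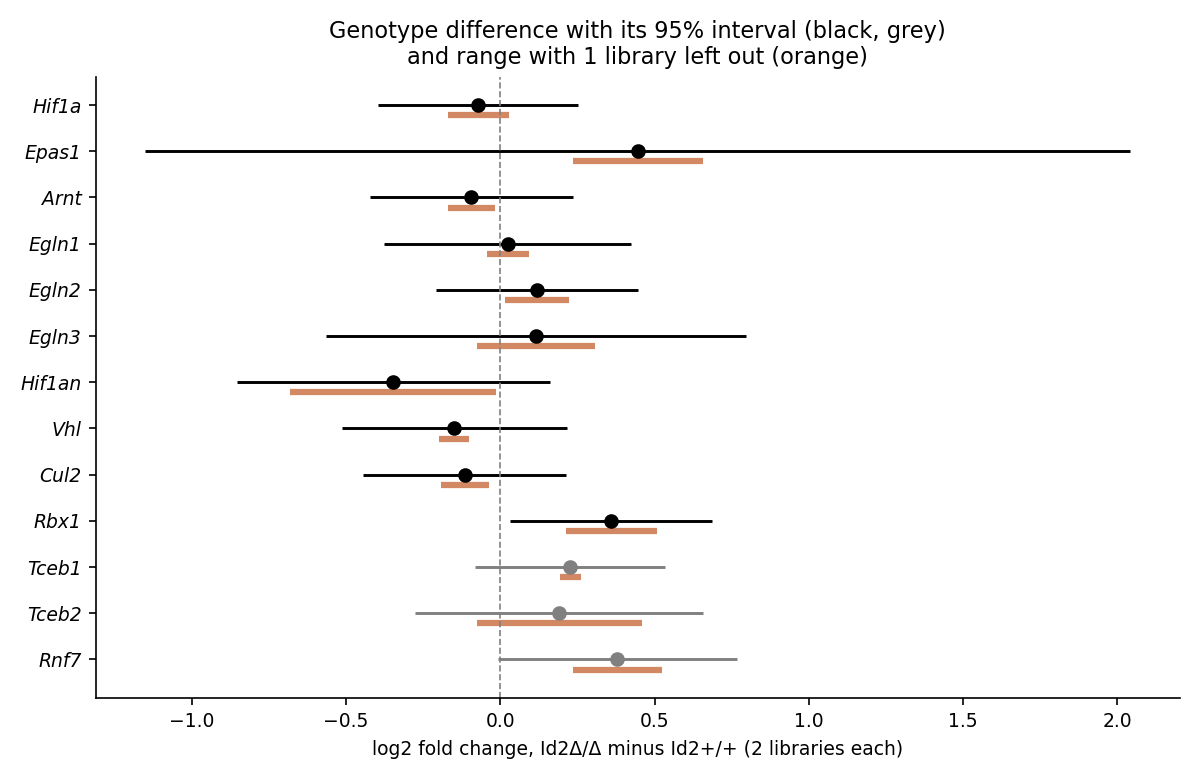
Log2 difference, *Id2*Δ/Δ minus *Id2*+/+, of the 10 genes (black) and of *Tceb1*, *Tceb2* and *Rnf7* (grey), on the x axis, with the 95% interval from limma (thin lines) and the range over fits that each left out 1 library (orange bars). The interval of *Rbx1* is the one that lies wholly above 0 (0.03 to 0.69), that of *Epas1* is the widest (-1.15 to 2.04), and the leave-out range of *Hif1an* runs from -0.68 to -0.01.

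Within the ligase, the RING subunit was higher and the other subunits of the set lower in *Id2*Δ/Δ HSCs, none past the adjusted threshold. *Vhl* (ENSMUSG00000033933.13, chromosome 6 from 113623959 to 113631633, plus strand) encodes the subunit that binds hydroxylated HIF-α. It was at 5.53 and 5.50 log2 CPM in *Id2*+/+ and at 5.41 and 5.31 in *Id2*Δ/Δ HSCs. Both *Id2*Δ/Δ values were below both controls, and the gap was small. The log2 difference was -0.15 (standard error 0.16, unadjusted p = 0.371 and adjusted p = 0.920, limma), or 0.902-fold with a 95% interval of 0.700 to 1.16-fold. Replicates were unusually close for *Vhl*, whose SD within genotypes of 0.05 was at the 5.88th percentile of all tested genes, and limma moves such a low spread toward that of genes at the same level.

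*Cul2* (ENSMUSG00000024231.14, chromosome 18 from 3382988 to 3436377, plus strand) encodes the scaffold that joins VHL to the RING subunit. Its levels were 6.22 and 6.31 log2 CPM in *Id2*+/+ and 6.23 and 6.07 in *Id2*Δ/Δ HSCs, a difference of -0.12 (standard error 0.14). *Id2*Δ/Δ replicate 1 lay between the controls, so the groups overlapped.

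*Rbx1* (ENSMUSG00000022400.8, chromosome 15 from 81466296 to 81476369, plus strand) encodes the RING protein that recruits the ubiquitin-carrying enzyme to cullin ligases. It was at 6.83 and 6.85 log2 CPM in *Id2*+/+ HSCs and at 7.34 and 7.05 in *Id2*Δ/Δ HSCs. Both *Id2*Δ/Δ libraries were above both controls, replicate 1 by more than replicate 2. The means were 6.84 ± 0.02 (SD, n = 2) and 7.20 ± 0.21 (SD, n = 2), a difference of 0.36 (standard error 0.14). This is 1.28-fold with a 95% interval of 1.02 to 1.61-fold, an unadjusted p of 0.0353 and an adjusted p of 0.910 from limma. Without *Id2*Δ/Δ replicate 1 the difference was 0.21 and without *Id2*Δ/Δ replicate 2 it was 0.51, and the unadjusted p missed 0.05 in each fit that left out 1 of the other 3 libraries and in the fit without an intensity trend.

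A processed pseudogene, *Rbx1-ps*, is 99.1% identical to *Rbx1* over 327 bases, and reads of that stretch are uncertain between the 2 rows. The row of the copy, called *Gm9840* in the table, held 21 and 18 reads in *Id2*+/+ and 35 and 34 in *Id2*Δ/Δ libraries. Its level was 1.13 to 1.99 CPM, where *Rbx1* itself was at 113 to 163 CPM.

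Elongin C and elongin B, listed under their older symbols *Tceb1* and *Tceb2*, complete the VHL complex by tying VHL to cullin 2. *Tceb1* was at 6.24 and 6.17 log2 CPM in *Id2*+/+ and at 6.44 and 6.43 in *Id2*Δ/Δ HSCs, a difference of 0.23 (standard error 0.13, adjusted p = 0.910, limma). *Tceb2* was at 5.74, 5.81, 6.23 and 5.70 in the same order, with *Id2*Δ/Δ replicate 1 alone above the rest. *Rnf7*, which encodes the RING partner of cullin 5 and is the close relative of *Rbx1*, was at 5.69 and 5.89 in *Id2*+/+ and at 6.32 and 6.03 in *Id2*Δ/Δ HSCs, a difference of 0.38 (standard error 0.17, adjusted p = 0.910, limma).

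Seen as ratios per kilobase within a library, *Rbx1* stood higher against *Vhl* and *Cul2* in *Id2*Δ/Δ HSCs, but not in both libraries against elongin C. *Rbx1* over *Vhl* was 4.10 and 4.26 in *Id2*+/+ and 6.37 and 5.56 in *Id2*Δ/Δ HSCs. Its ratio to *Cul2* was 3.48 and 3.32 in *Id2*+/+ and 4.95 and 4.50 in *Id2*Δ/Δ HSCs. Groups did not overlap in either ratio. Against *Tceb1*, *Rbx1* stood at 1.80 and 1.92 in controls and at 2.25 and 1.85 after deletion, so the groups overlapped. Against *Tceb2* the ratio was 0.682 and 0.660 in controls and 0.694 and 0.820 after deletion, without overlap. These ratios combine the differences already given and were not tested. Among the 5 subunits of the complex, *Vhl* made up 6.86% and 6.57% of the summed level per kilobase in *Id2*+/+ and 4.84% and 5.69% in *Id2*Δ/Δ HSCs, the smallest share in each library.

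**Figure D3:**
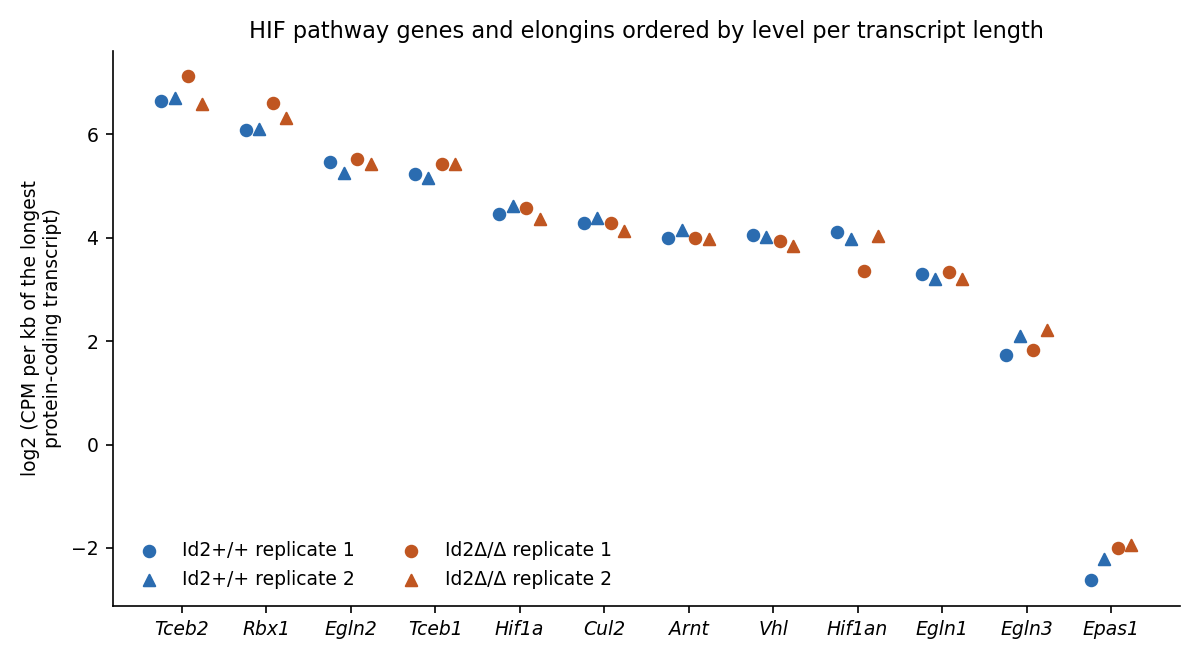
Level of the 10 genes and the 2 elongins in log2 CPM per kilobase of the longest coding transcript (y axis), 1 point per library, coloured by genotype, with genes ordered by mean along the x axis. *Tceb2* and *Rbx1* lead at means of 6.76 and 6.27, *Hif1a*, *Cul2*, *Arnt*, *Vhl* and *Hif1an* form a run from 4.50 to 3.87, and *Epas1* lies last at -2.20.

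On this log2 scale per kilobase the order of mean levels was *Tceb2* (6.76), *Rbx1* (6.27), *Egln2* (5.41), *Tceb1* (5.31), *Hif1a* (4.50), *Cul2* (4.27), *Arnt* (4.02), *Vhl* (3.96), *Hif1an* (3.87), *Egln1* (3.25), *Egln3* (1.97) and *Epas1* (-2.20). Over the 4 libraries the ranges of neighbours overlapped for *Tceb2* and *Rbx1*, for *Egln2* and *Tceb1*, and along the whole run from *Hif1a* to *Hif1an*. They did not overlap at the other steps, from *Rbx1* to *Egln2*, *Tceb1* to *Hif1a*, *Hif1an* to *Egln1*, *Egln1* to *Egln3* and *Egln3* to *Epas1*. The transcript model matters for this order: scaled by merged exons of all transcripts, *Arnt* moved from place 7 to place 10 and *Egln2* passed *Rbx1*.

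Genes that load, switch and recycle cullin ligases were read as a group. Of 13 genes for elongins, neddylation (attachment of NEDD8, which activates cullins) and cullin exchange, 7 had a higher and 6 a lower mean after deletion, none was called, and the median log2 difference was 0.11, or 0.04 after a correction for transcript length. The exchange factors *Cand2* and *Cand1* differed by 0.14 and -0.16. *Dcun1d1* and *Dcun1d3*, which help to attach NEDD8, differed by -0.17 and -0.50 (standard errors 0.11 and 0.25). *Cand1*, *Dcun1d1* and *Dcun1d3* were below the controls in each *Id2*Δ/Δ library, and *Tceb1*, *Ube2m* and *Dcun1d5* were above them, 3 of 13 genes each way, where 15.8% of all tested genes lay below and 19% above.

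The COP9 signalosome removes NEDD8 again. Of its 9 genes 7 were higher and 2 lower with a median of 0.04, and *Cops3*, at 7.12 and 7.14 log2 CPM in *Id2*+/+ and 7.30 and 7.33 in *Id2*Δ/Δ HSCs, had the largest gap without overlap, 0.19 (standard error 0.11). The abundant *Cops6* and *Cops7a* differed by -0.04 and 0.01. Among 8 genes for other cullins and *Rnf7*, 3 were higher and 5 lower with a median of -0.14. *Cul3*, *Cul1* and *Cul4a*, scaffolds of other ligases, differed by 0.10, -0.12 and -0.21. Both *Id2*Δ/Δ libraries were below both controls for 4 of the 8 genes, *Cul4a* among them, and above for 1, *Rnf7*. Of all tested genes 15.8% lay below and 19% above in this way.

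HIF cofactors and proteins that act on HIF stability apart from VHL were higher for 14 of 20 genes, beside 51.7% of all tested genes, with a median log2 difference of 0.11 and none called. The abundant chaperone genes *Hsp90ab1* and *Hsp90aa1* differed by -0.04 and 0.17, and *Rack1*, whose product competes with HSP90 on HIF-1α, by 0.19. *Cited4*, one of a family that competes with HIF for the coactivators CBP and p300, had 16 and 28 reads in *Id2*+/+ and 75 and 64 in *Id2*Δ/Δ libraries. Its log2 difference was 1.51 (standard error 0.52, unadjusted p = 0.0217 and adjusted p = 0.910, limma), the single gene of the list under an unadjusted p of 0.05, where 1.72% of all tested genes were higher at that level. *Ing4*, a repressor of HIF activity, differed by -0.38 (standard error 0.28).

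Known HIF targets outside glycolysis cover only a part of the output of the pathway, and the glycolytic targets were not read here. The paper reports decreased glycolytic HIF-1α targets and lower HIF-1α protein in *Id2*Δ/Δ HSCs. Of 30 listed genes 24 had a row and 23 were tested, of which 12 were higher and 11 lower, with a median log2 difference of 0.01, the same as for all tested genes, and none called. *Tfrc*, the transferrin receptor that takes up iron, was at 5.27 and 5.24 log2 CPM in *Id2*+/+ and at 5.77 and 5.79 in *Id2*Δ/Δ HSCs. Its difference was 0.53 (standard error 0.15, unadjusted p = 0.00965 and adjusted p = 0.910, limma), and it is also a marker of erythroid and of dividing cells. Erythroid markers, *Tfrc* among them, summed to 2021 and 1920 CPM in *Id2*+/+ and to 1913 and 1793 CPM in *Id2*Δ/Δ HSCs. *Car2* made up nearly all of that sum, and the other markers came to 73.3 and 65.5 CPM in controls and to 78.6 and 92.0 CPM after deletion, more of it *Tfrc* itself than any other gene. The mitophagy receptor gene *Bnip3l* differed by 0.07, the histone demethylase genes *Kdm3a* and *Kdm4b* by -0.27 and -0.34, and *Hmox1*, the heme-degrading enzyme, by -0.63 (standard error 0.38). Both *Id2*Δ/Δ libraries were below both controls for 2 of the 23 tested targets, *Kdm3a* and *Hmox1*, and above for 3, *Tfrc* among them. Such gaps were shown by 15.8% of all tested genes below and 19% above, and *Kdm4b* overlapped.

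**Figure D4:**
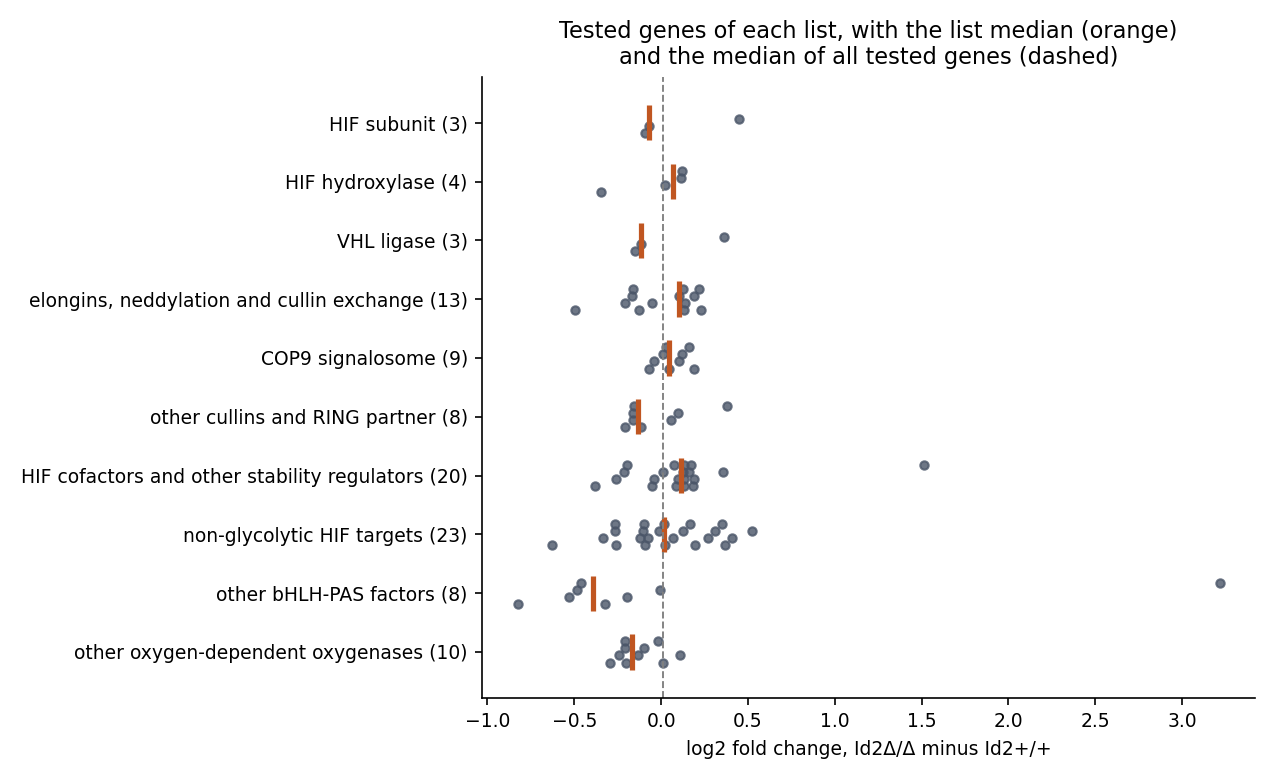
Log2 difference, *Id2*Δ/Δ minus *Id2*+/+, of every tested gene (points, x axis) in the 3 groups of the set and 7 related lists (y axis, genes tested in brackets), with each list's median (orange) and the median of all tested genes (dashed, 0.01). List medians lie between -0.39 for other bHLH-PAS factors and 0.11, and no point passed the adjusted threshold; the point farthest to the right is *Npas3* at 3.22, which rests on 1 read in *Id2*+/+ replicate 1.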

How the data were processed

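Values were used as the authors deposited them: log2 CPM for 19354 genes in 4 columns, a unit read from the values, which sum to 999980 to 999996 CPM per library. In 88.4% of ranks the sorted columns lie within 0.1, the mark of quantile normalization. The submitters' processing notes name CASAVA 1.8.4, Trimmomatic 0.30, TopHat2 2.0.8, RSEM and STAR with builds mm9 and NCBIM37, without role or order. The counting rule and strand use are not given in the sources used here.

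Reads below 32 CPM (62.1% of values) were recovered as ranks of distinct values, and on simulated counts 100% came out exactly. Reads above that were not recovered, so no count model was run. The comparison used limma 3.58.1 under R 4.3.3 (lmFit, eBayes with an intensity trend, genotype only, two-sided, no pseudocount), with Benjamini-Hochberg adjustment over the 15895 genes whose mean reached 1 CPM. An adjusted p under 0.05 was called. In a simulation of 15895 genes, the test called 0 of 200 genes shifted by 1 log2 unit, and 144 of 200 shifted by 2 log2 units together with 6 unchanged genes. Since the libraries are normalized to one distribution, a change shared by most genes would not show.

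Gene coordinates and lengths are from GENCODE M21 (GRCm38), matched by Ensembl identifier for 99.7% of rows, and are not coordinates of the authors' build. Copies were searched with BLAST+ 2.17.0 (at least 90% identity over 200 bases), and promoter sequences are from RefSeq.

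The 10 genes, the lists and the markers were chosen by role with earlier results of these data known. Named are the 10 genes, *Id2*, both elongins and, from each related list, the 3 most abundant tested genes, the largest rise and the largest fall without overlap, and any gene at an unadjusted p under 0.05. *Ube2m*, *Dcun1d5*, *Stab2*, *Kdr*, *Emcn*, *Tie1*, *Cd34*, *Prtn3* and *Car2* were named after their values were seen. Alternatives varied the pseudocount, filter, trend, scaling, replicate term and libraries. The length corrections and the scaling by merged exons were added after seeing the data.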

Additional observations from a re-analysis of the deposited data

How the results depend on the processing

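No alternative called 1 of the 10 genes at an adjusted p under 0.05. Of 129 alternative values of the 10 genes, 123 kept their direction and 6 reversed, all of them for *Hif1a*, *Egln1* and *Egln3* when a library was left out. Over those fits *Hif1a* ran from -0.17 to 0.027, passing 0.0053 without *Id2*+/+ replicate 2, *Egln1* from -0.044 to 0.092, passing -0.024 without the same library, and *Egln3* from -0.077 to 0.31, passing -0.072 without *Id2*+/+ replicate 1. A lone library was then assumed to vary like the other genotype. At an unadjusted p under 0.05 stood 742 genes, 1 of them of the set. *Rbx1* missed that level without an intensity trend. Leaving out a library gave 196 (*Id2*+/+ replicate 1), 246 (*Id2*+/+ replicate 2), 1242 (*Id2*Δ/Δ replicate 1) and 2516 genes (*Id2*Δ/Δ replicate 2). Deviations of same-numbered libraries from their genotype means correlated at 0.0592 over all tested genes and at 0.144 over genes from 32 CPM, and the labels do not say what a number marks, so the numbers were not taken as pairs. A fit with the replicate block called 1 gene, not one of the set. Leaving out a library moved list medians over -0.0038 to 0.138 (elongins, neddylation and exchange), 0.0328 to 0.103 (COP9 signalosome), -0.192 to -0.0165 (other cullins), -0.374 to -0.175 (bHLH-PAS), 0.0434 to 0.110 (cofactors), -0.0763 to 0.0912 (HIF targets) and -0.230 to -0.0289 (oxygenases). Corrected for transcript length, with or without the block, the median was 0.0443 for elongins, neddylation and exchange, -0.0551 for other cullins and -0.32 for bHLH-PAS factors, and a pseudocount of 1 CPM gave -0.31 for the last. The cause of these shifts was not tested. Depth limits *Epas1* most, with 13 to 24 reads per library, and at a mean of at least 10 CPM it was not tested.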

Other observations

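The α subunits and ARNT belong to the bHLH-PAS family, and only some of its other members share dimer partners with them. Of 13 other members 9 had a row and 8 were tested, and 7 of the 8 were lower in *Id2*Δ/Δ HSCs, beside 7673 of 15895 tested genes, with a median log2 difference of -0.39. None was called by limma, and 0 passed an unadjusted p under 0.05. *Clock*, a core gene of the circadian clock, was at 5.57 and 5.97 log2 CPM in *Id2*+/+ and 5.50 and 5.12 in *Id2*Δ/Δ HSCs, a difference of -0.46 (standard error 0.21, adjusted p = 0.910, limma). Its partner *Arntl* was at 5.60 and 5.39 in *Id2*+/+ and at 5.57 and 5.41 in *Id2*Δ/Δ HSCs, where the groups overlap. *Npas2*, a relative of *Clock*, had 98 and 36 reads in *Id2*+/+ and 39 and 37 in *Id2*Δ/Δ libraries, so *Id2*+/+ replicate 1 alone was high. *Ahr*, the dioxin receptor, differed by -0.20 with overlap. *Npas3* was the one member with a higher mean, from 1 and 13 reads in *Id2*+/+ and 63 and 17 in *Id2*Δ/Δ libraries. *Hif3a*, the third HIF-α gene, named for its family and outside the rule, had 201 and 410 reads in *Id2*+/+ and 258 and 242 in *Id2*Δ/Δ libraries, with overlap.

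Apart from *Ado*, the other oxygen-dependent oxygenases listed work by the chemistry of the HIF hydroxylases. Of 12 listed 10 were tested, and none was called (0 at an unadjusted p under 0.05, limma). Of the 10, 2 were higher and 8 lower, where 51.7% of all tested genes were higher. The median log2 difference was -0.17, or -0.10 after the correction for transcript length. The histone demethylase genes *Kdm5a* and *Kdm5c* were lower in both *Id2*Δ/Δ libraries than in both controls. Their differences were -0.25 (standard error 0.13) and -0.29 (standard error 0.15), and -0.08 and -0.20 after the length correction. Of the 10 genes, 3 lay below the controls in this way and 0 above, where 15.8% and 19% of all tested genes did. *Ado*, a thiol oxygenase that senses oxygen, differed by -0.02 and *Asph*, an asparaginyl hydroxylase, by -0.21, both with overlap.

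Markers of other cells were read as summed CPM in *Id2*+/+ replicates 1 and 2 and then *Id2*Δ/Δ replicates 1 and 2. Megakaryocyte and platelet markers summed to 454, 510, 513 and 598 CPM, and the paper describes platelet-biased HSCs by genes of this list. Those of CD48+ or FLT3+ progenitors summed to 429, 371, 406 and 367 CPM. Most of that sum was *Cd34*, at 372, 318, 354 and 319 CPM, which the paper treats as an activation marker of HSCs. The paper reports more *Cd34* RNA in *Id2*Δ/Δ HSCs, from single-cell RNA-Seq and quantitative PCR. In the libraries used here the groups overlapped, with a log2 difference of -0.03 (standard error 0.12). Whether these sums come from other cells or from HSCs was not tested. Marrow stroma came to 36.6, 29.3, 39.3 and 25.5 CPM, monocytes and macrophages to 50.4, 44.4, 51.1 and 40.1 CPM, and B and T lymphocytes to 35.0, 41.3, 53.2 and 37.1 CPM, with 8 of the 11 lymphocyte genes without a row.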
